A study of Mus musculus with 3 samples.

Results

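The heat-shock chaperones examined here were 10 genes of the 34289 features listed for 3 single-cell RNA libraries from mouse ear epidermis. They were Hspa1a and Hspa1b, Hsph1, Bag3, Dnajb1, Hspa8, Hsp90aa1, Hspd1, Hspe1 and Hspb1, taken by symbol, and each symbol was found in all 3 libraries. The members, and a split of the Langerhans cells at 500 CPM of Hspa1a and Hspa1b together, were chosen by the measured levels of these genes in the same cells. CPM is the usual scaling of a gene's UMIs (unique molecular identifiers, 1 per captured molecule) to a fixed total over all genes. Each library was from male mice of the Cd1 stock, which is outbred. The untreated mice received Nair, a depilatory cream, and nothing else. In the croton oil library the ears were treated with acetone, croton oil (an irritant) and olive oil, and in the microneedle library with repeated punches of a microneedle array. Treated skin was taken 48 h after the first treatment. All 3 groups shared the steps of cell isolation, which were a warm trypsin incubation, mechanical dissociation, removal of dead cells and magnetic enrichment of Langerhans cells. The number of animals behind each library is not given in the labels, and there was 1 library per group. No difference between groups therefore has a replicate check, and intervals are 95% intervals for counting error only.

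Langerhans cells, which live in the epidermis and present antigen to T cells, are known by Cd207 (langerin), Epcam and MHC class II. The inducible Hsp70 proteins encoded by Hspa1a and Hspa1b bind unfolded proteins after heat and other proteotoxic stress, and heat shock factor 1 (Hsf1) drives these genes through repeats of a short element in their promoters. Hsp70 works with helpers: Dnajb1 is an Hsp40 cochaperone that delivers substrates and stimulates the ATPase, while Hsph1 (Hsp110) and Bag3 act as nucleotide exchange factors. Hspa8 is the constitutive cytosolic Hsp70 and Hsp90aa1 the stress-responsive cytosolic Hsp90. Hspd1 and Hspe1 form the mitochondrial Hsp60 and Hsp10 folding chamber, and Hspb1 is a small heat-shock protein abundant in differentiating keratinocytes. In cells prepared by warm enzymatic digestion, heat-shock and immediate early genes are known to be induced during the preparation itself.

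The promoters are shown because heat shock factor 1 acts through them. Sequences are from the GRCm39 reference genome at the GENCODE M39 canonical starts, 5′ to 3′ on the gene's strand, and capitals mark every match to GAANNTTC or TTCNNGAA, a pair of inverted 5′-GAA-3′ units as in the heat shock element, searched on both strands. Hspa1a is on chr17 minus, Hspa1b on chr17 minus and Hspb1 on chr5 plus, and the stretches end at the base before the start. The stretch of Hsph1 (chr5 minus) and that of Hspd1 (chr1 minus) are limited to 30 bases, since other annotated transcripts begin there. A second match of Hsph1, from base 41 to 48 after the start, lies outside the stretch shown.
Hspa1a, chr17:35191133-35191252: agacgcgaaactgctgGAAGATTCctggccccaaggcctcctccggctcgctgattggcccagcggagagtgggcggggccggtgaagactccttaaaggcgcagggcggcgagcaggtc
Hspa1b, chr17:35178215-35178334: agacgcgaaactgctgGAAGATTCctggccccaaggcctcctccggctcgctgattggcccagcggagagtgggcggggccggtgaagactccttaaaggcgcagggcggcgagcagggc
Hspb1, chr5:135916640-135916759: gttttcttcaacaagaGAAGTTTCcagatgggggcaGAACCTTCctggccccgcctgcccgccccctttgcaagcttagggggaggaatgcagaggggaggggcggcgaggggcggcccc
Hsph1, chr5:149559816-149559845: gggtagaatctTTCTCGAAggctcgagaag
Hspd1, chr1:55127212-55127241: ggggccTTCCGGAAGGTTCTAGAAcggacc

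The promoter stretches of Hspa1a and Hspa1b were identical at 119 of 120 bases, and the windows from 250 bases before to 50 after the start at 296 of 300. A match to the pair was found in these windows for 7 of the 10 members, against 14.3% of 21656 protein-coding promoters searched the same way. The members without a match were Bag3, Hspa8 and Hsp90aa1. At least 2 pairs were found for 4 members and in 1.7% of all promoters. The longer repeat of 3 units, GAANNTTCNNGAA or TTCNNGAANNTTC, was found only in Hspd1 and Hspe1 among the members and in 0.48% of all promoters. Those 2 genes are transcribed away from each other and their windows overlap, so their matches are the same bases. A match is a description of letters and the overlapping pairs in Hspd1 and Hspe1 are counted separately.

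Langerhans cells were gated by at least 2 Epcam UMIs and at least 2% of UMIs from Cd74, H2-Aa, H2-Ab1 and H2-Eb1 together. The gate held 8652 of 9054 retained cells of the untreated, 5920 of 7626 of the croton oil and 5290 of 6479 of the microneedle library. Their median depth was 11514, 12581 and 17346 UMIs in that order, which is the order used throughout, and they held 107593396, 81343121 and 96681958 UMIs in all. A UMI of Cd207 was present in 97.3%, 76.7% and 95.1% of the gated cells. The libraries shared few cell barcodes (32 between untreated and croton oil, 17 between untreated and microneedle, 13 between the treated libraries).

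Hspa1a and Hspa1b were unevenly spread over Langerhans cells. Together they reached 258 CPM in the summed untreated cells (exact Poisson interval 254.6 to 261), 315 CPM in the croton oil cells (311 to 319) and 218 CPM in the microneedle cells (215 to 221). The median cell was far below these sums, at 88.9, 78.0 and 63.3 CPM, and 36.3%, 38.7% and 35.4% of cells held no UMI of either gene. At the other end, 99% of cells were below 4459, 5193 and 4179 CPM. The 10% of cells with most Hspa1 UMIs held 63.6%, 74.1% and 68.6% of all of them.

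Cells at or above 500 CPM are called high here. They were 944 of 8652 untreated Langerhans cells (10.9%, exact Clopper-Pearson interval 10.3 to 11.6), 644 of 5920 in croton oil (10.9%, 10.1 to 11.7) and 405 of 5290 in microneedle (7.66%, 6.95 to 8.41). When each cell was thinned to 3000 UMIs, leaving out 102, 32 and 59 shallower cells, the shares were 13.5%, 13.0% and 10.0%. The microneedle library was thus the lowest on both scales, by more than the counting intervals, while the other two overlapped. At 1000 CPM the order changed, with 5.32%, 7.57% and 4.63% of cells, and croton oil was then the highest. At 2000 CPM microneedle (2.84%) was slightly above untreated (2.68%). The plot of cells by level shows the croton oil curve crossing the untreated curve at 500 CPM. Cells lay on both sides of the split, in that 258, 127 and 93 cells lay between 400 and 500 CPM and 153, 55 and 68 between 500 and 600 CPM. High cells are thus called by a range of a level, and are not named as a type. Hsph1 was at 36.4, 46.5 and 107 CPM in the cells just below the split and at 77.0, 126 and 114 CPM in those just above it. Bag3 was at 62.9, 66.1 and 33.3 CPM below and 49.6, 89.4 and 73.2 CPM above, so it was lower above the split in untreated cells. Dnajb1 was at 71.8, 55.1 and 48.7 CPM below and 77.5, 89.4 and 81.9 CPM above.

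**Figure D1:**
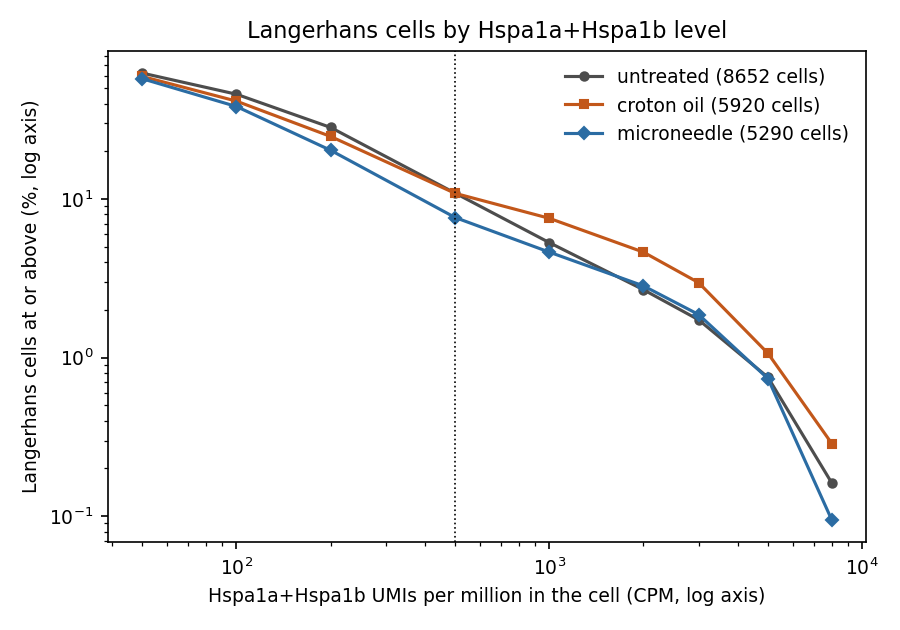
Share of Langerhans cells (%, log axis) at or above each level of Hspa1a and Hspa1b together (CPM, log axis), with 1 line per library and the 500 CPM split dotted. The croton oil and untreated lines meet at 10.9% at 500 CPM, and above it the croton oil line is the highest, at 4.63% of cells at 2000 CPM against 2.68% untreated and 2.84% microneedle.

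Hspa1a and Hspa1b are neighbouring genes on chromosome 17 whose coding sequences are nearly the same, so the split of UMIs between them depends on how the authors' counting treated shared reads and is uncertain. Hspa1a took 76.2% of the Hspa1 UMIs of untreated Langerhans cells, 69.5% in croton oil and 74.6% in microneedle. In high cells it took 77.2%, 68.9% and 73.2%, close to the values in other cells of 74.4%, 71.4% and 77.0%. Within libraries the thinned UMIs of the 2 genes had a Pearson r of 0.43 over 8550 untreated, 0.55 over 5888 croton oil and 0.53 over 5231 microneedle cells. These correlations are over cells of 1 library and carry no test.

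Of the other 8 members, Hsph1, Bag3 and Dnajb1 were the ones that went with Hspa1a and Hspa1b from cell to cell. Hsph1 was at 272 CPM in high and 21.4 CPM in other untreated Langerhans cells, at 343 and 26.5 CPM in croton oil and at 532 and 19.0 CPM in microneedle. This is a difference of 3.39, 3.47 and 4.48 on the log2(CPM + 5) scale, the largest of any member in each library. Bag3 was at 151 and 41.8 CPM, 189 and 36.3 CPM, and 213 and 28.8 CPM, or 1.73, 2.23 and 2.69 on that scale. Dnajb1 was at 111 and 48.2 CPM, 138 and 49.7 CPM, and 113 and 37.5 CPM, or 1.13, 1.39 and 1.47. Hspa1a and Hspa1b were left out of the totals for these values, because they defined the split.

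The constitutive Hspa8, the stress-responsive Hsp90aa1 and the mitochondrial Hspd1 and Hspe1 differed far less between the same cells. Hspa8 was at 1023 CPM in high and 909 CPM in other untreated cells (0.17 on the log2 scale), at 1380 and 1114 CPM in croton oil (0.31) and at 1147 and 991 CPM in microneedle (0.21). Hsp90aa1 was at 580 and 584 CPM, 613 and 548 CPM, and 517 and 525 CPM, so its sign differed between libraries. Hspd1 gave 0.17, 0.11 and 0.28 and Hspe1 0.26, 0.21 and 0.28. Hspb1 was under the minimum of 20 CPM in both high and other cells of every library and was not compared. In each library 3 of 7 members compared were at least 2-fold higher in high cells and 0 were lower. Over all genes compared, 0.289% of 6564 were at least 2-fold higher in untreated, 0.625% of 6562 were with croton oil and 0.526% of 6654 with microneedles. These were 19, 41 and 35 genes, which fell to 8, 20 and 12 after thinning to 3000 UMIs. The members among them were then 2, 3 and 3. The split used the same measured cells, so these counts describe the cells and test nothing.

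Across 6 bins of Hspa1 level Hsph1 and Dnajb1 were highest in the top bin of each library, and were already higher from 250 to 500 CPM than in the bins below. There Hsph1 was at 30.9, 34.1 and 47.2 CPM and Dnajb1 at 57.7, 57.1 and 46.9 CPM. In cells without a Hspa1 UMI, Hsph1 was at 19.1, 27.1 and 18.1 CPM. It was at 76.3, 203 and 201 CPM in cells from 500 to 1000 CPM of Hspa1, and at 808, 455 and 960 CPM in those from 2000 CPM. Bag3 went from 40.1, 36.5 and 29.96 CPM without a Hspa1 UMI to 424, 223 and 321 CPM in the top bin. In the bin from 500 to 1000 CPM, Bag3 was at 55.9 CPM untreated but at 193 CPM with croton oil and 120 CPM with microneedles, and in croton oil it was lower in the next bin (143 CPM). Dnajb1 was close in all libraries, from 44.6, 44.9 and 34.8 CPM to 176, 176 and 179.9 CPM. The top bin held 232, 274 and 150 cells, of 10050, 11402 and 14880 median UMIs. Among high cells thinned to 3000 UMIs, 39.2%, 53.6% and 59.9% held a UMI of Hsph1 or Bag3, against 14.8%, 14.1% and 11.4% of other cells. Without thinning the shares were 63.8%, 80.1% and 83.8% against 44.4%, 43.8% and 46.6%.

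**Figure D2:**
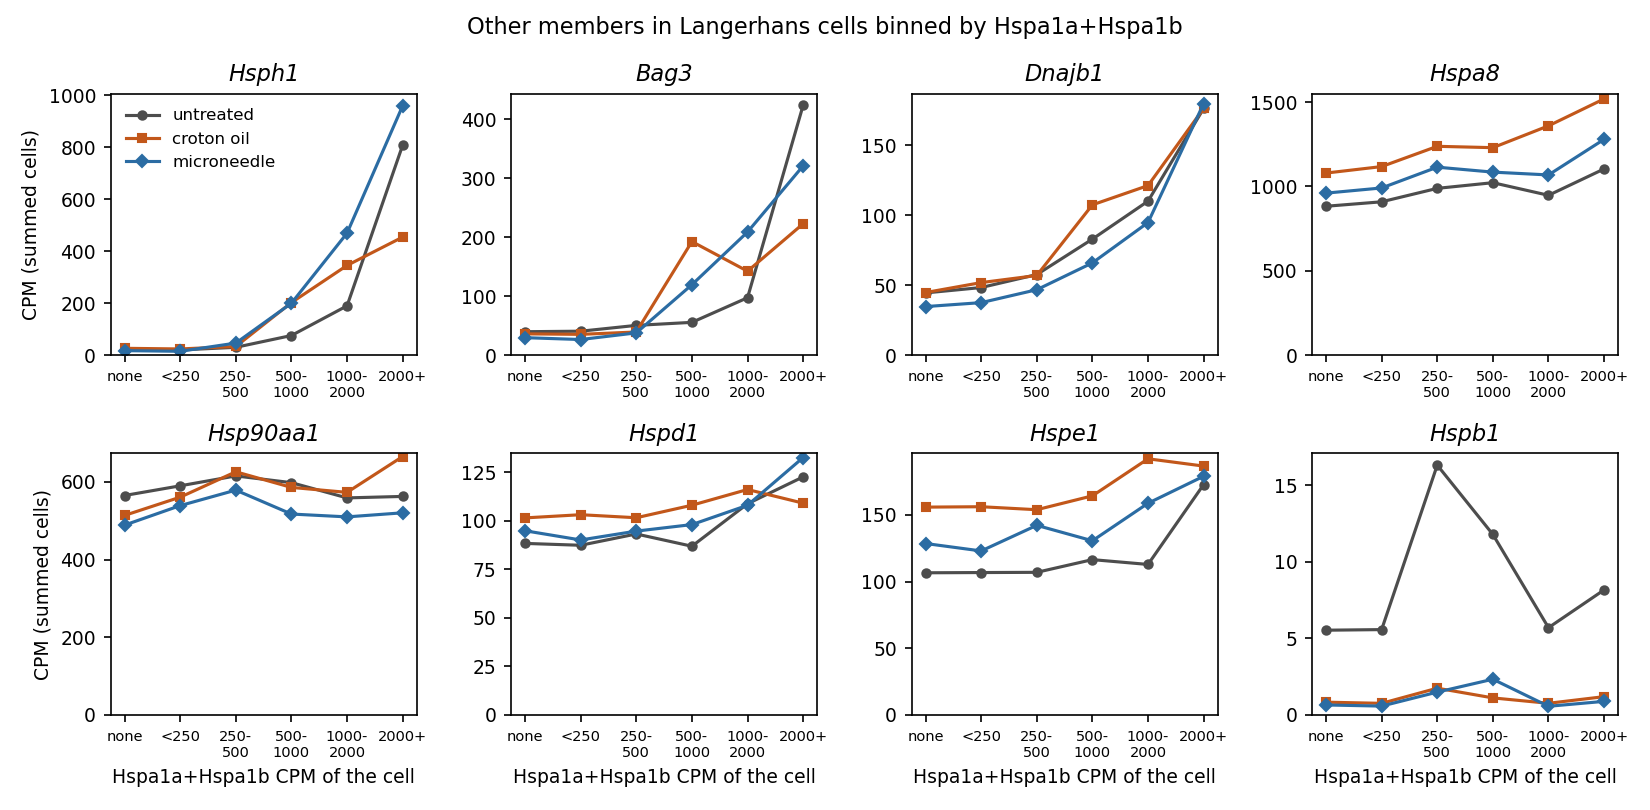
CPM of each of the other 8 members (y axes, linear and separate for each gene) in Langerhans cells summed within bins of their Hspa1a and Hspa1b level (x axis, CPM), 1 line per library. Hsph1, Bag3 and Dnajb1 are highest in the top bin of each library, at 808, 424 and 176 CPM in untreated cells, while Hsp90aa1 stays between 489 and 666 CPM in all bins and Hspb1 at no more than 16.3 CPM.

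What else was higher in the high cells was a short list. Of 5898 genes compared in all 3 libraries, 7 (0.119%) were at least 2-fold higher in every one, and none was at least 2-fold lower in every one. They were the members Hsph1, Bag3 and Dnajb1 with Ubqln1, Tbl3, Trmt61b and Lgals7. Ubqln1, a ubiquitin-like shuttle protein that brings clients to the proteasome, was at 185 CPM in high and 81.4 CPM in other untreated cells, 219 and 74.4 CPM in croton oil and 303 and 77.6 CPM in microneedle. Tbl3, a WD-repeat protein of ribosome biogenesis, was at 103 and 40.7 CPM, 70.1 and 26.8 CPM, and 81.1 and 26.4 CPM. Trmt61b was at 244 and 104 CPM, 309 and 129 CPM, and 508 and 226 CPM. The annotated span of Trmt61b (chr17:71863541-71906189, minus strand, a long noncoding gene in GENCODE M39) overlaps that of Spdya (chr17:71859027-71896534, plus strand), which was 1.01, 1.20 and 0.94 higher on the log2 scale.

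Further genes that were higher in all 3 libraries by the naming rule had smaller or more variable differences. St13, the Hsp70-interacting protein Hip, gave 0.89, 0.68 and 1.17 on the log2 scale. Mat2a, which makes S-adenosylmethionine, gave 0.72, 0.95 and 0.91, and Mfn2, of mitochondrial fusion, gave 0.79, 0.88 and 0.87. Polr1a, the largest subunit of RNA polymerase I, gave 1.00, 0.97 and 1.48. Ormdl3, Slc7a6os, Khnyn and the noncoding Gm57271 lay between 0.64 and 1.40. The keratin genes Krt14 (2.87, 0.91 and 2.61) and Krt5 (2.58, 0.67 and 2.77) were also on the list.

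Keratinocyte marker RNA was higher in high cells as a sum, though not in the share of cells that held it. Summed over 11 markers they were at 696 CPM in high and 221 CPM in other untreated Langerhans cells, at 432 and 207 CPM in croton oil and at 214 and 43.8 CPM in microneedle, with 7, 9 and 10 of 11 higher. More than 1 UMI of these markers was present in 30.7% of high and 33.3% of other untreated cells, 30.6% and 31.8% in croton oil and 17.0% and 18.2% in microneedle. Cells with many such UMIs were few: 11 of 944 high cells against 28 of 7708 others held 20 or more UMIs of these markers in untreated, 4 of 644 against 17 of 5276 in croton oil and 3 of 405 against 2 of 4885 in microneedle. In Langerhans cells with at most 1 UMI of these markers, Hsph1 differed by 3.45, 3.58 and 4.52, Bag3 by 1.85, 2.16 and 2.71 and Dnajb1 by 1.06, 1.27 and 1.41 on the log2 scale, all close to the values in all cells. In the same cells Lgals7 (galectin-7 of keratinocytes), which is not among the 11 markers, gave 0.09, 0.13 and 0.07. Krt14 and Krt5 are among the markers, so their values near 0 in these cells follow from the choice of cells. The genes at least 2-fold higher in all 3 libraries were then 7 of 5883, with Spdya in place of Lgals7. T cell markers were at 60.0 CPM in high and 18.6 CPM in other microneedle cells, with 11 of 12 higher, but at 20.6 and 19.0 CPM untreated and 87.2 and 98.4 CPM in croton oil. Monocyte/macrophage markers were at 802 CPM in high and 542 CPM in other croton oil cells, with 11 of 11 higher, against 757 and 674 CPM untreated and 504 and 483 CPM in microneedle. Neutrophil markers, 8 in all, were at 2066 CPM in high and 2702 CPM in other untreated cells, 2344 and 2758 CPM in croton oil and 3242 and 4101 CPM in microneedle, with 1, 4 and 2 higher. The part of these 3 cell types in the values was not tested.

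**Figure D3:**
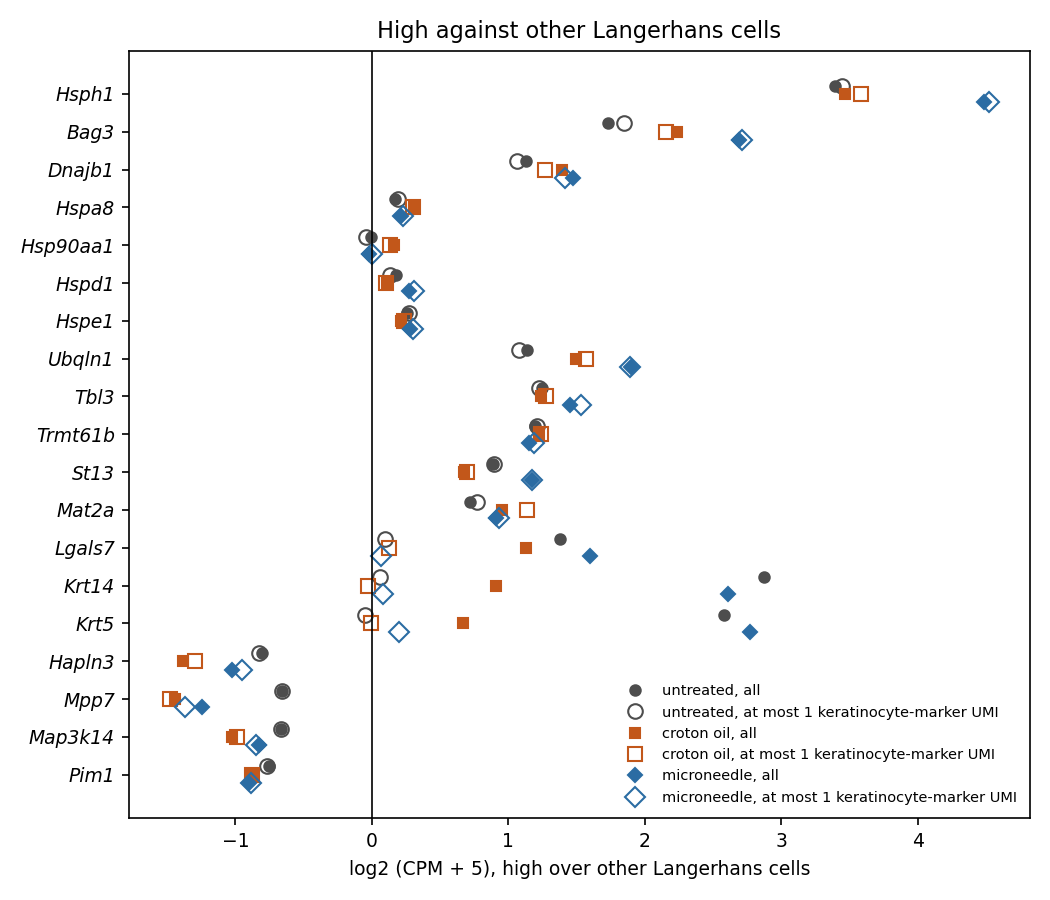
Difference between high and other Langerhans cells, log2(CPM + 5), for the 7 members compared and for other named genes, with filled symbols for all cells and open symbols for cells with at most 1 UMI of the keratinocyte markers. Hsph1 lies at 3.39, 3.47 and 4.48 and hardly moves in the open symbols, while Lgals7 lies between 0.07 and 0.13 in them. The open symbols of Krt14 and Krt5 lie near 0 because both genes were used to choose those cells.

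The lower genes were fewer and the differences smaller. Mpp7, a scaffold protein of cell junctions, was at 175 CPM in high and 279 CPM in other untreated cells, 198 and 547 CPM in croton oil and 236 and 566 CPM in microneedle. Hapln3, a hyaluronan-binding link protein, was at 31.0 and 57.8 CPM, 40.1 and 113 CPM, and 91.5 and 191 CPM. Map3k14 (NIK), the kinase of noncanonical NF-kappaB signalling, differed by -0.66, -1.03 and -0.83 on the log2 scale, and the kinase gene Pim1 by -0.75, -0.88 and -0.90. The neutrophil chemokine Cxcl1 gave -0.94, -0.75 and -0.91. B4galt5, Sema7a, Adarb1, Slc16a6 and Cnnm2 lay between -1.17 and -0.64. Across libraries, 1, 15 and 9 genes were at least 2-fold lower (0.0152%, 0.229% and 0.135% of those compared). These counts depended on the settings, with 26, 37 and 44 for a split at 1000 CPM and 0, 2 and 3 after thinning.

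The other chaperones on a list of 34 cytosolic chaperones and cochaperones were mostly a little higher in high cells. Of 25 compared in each library, 19, 19 and 18 were above 0, with medians of 0.16, 0.21 and 0.25 on the log2 scale, beside medians of 0.05, 0.05 and 0.05 over all genes. At least 2-fold higher were 0 in untreated, 1 in croton oil (Dnajb4) and 2 in microneedle (St13 and Dnajb4), where 0.289%, 0.625% and 0.526% of all genes were. Dnajb4, an Hsp40, gave 0.59, 1.07 and 1.11, Hspa4l, an Hsp110 relative, 0.49, 0.33 and 0.97, and Dnaja1 0.59, 0.46 and 0.50. For the 8 subunits of the TRiC chaperonin, which folds actin and tubulin, the medians were 0.10, 0.12 and 0.08. Hsf1 itself was at 19.2, 20.8 and 27.9 CPM in all Langerhans cells, and differed by 0.13, -0.12 and -0.07. The 19 listed genes of the endoplasmic reticulum and unfolded protein response, 15 or 16 of which were compared, had medians of -0.02, 0.03 and -0.06, and none was 2-fold apart in any library.

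Of 21 listed immediate early genes, 20, 19 and 19 were compared between high and other cells, and 0 were at least 2-fold lower in any library. At least 2-fold higher were 0, 1 and 0. Over all genes compared, 0.0152%, 0.229% and 0.135% were at least 2-fold lower and 0.289%, 0.625% and 0.526% higher. The medians were -0.26, -0.37 and -0.42, with 2, 4 and 3 genes above 0. Fos gave -0.27, -0.37 and -0.69, Fosb -0.26, -0.84 and -0.75, and Egr1 -0.47, -0.42 and -0.48. Jun was above 0 in all 3, at 0.21, 1.42 and 0.74, and was the 1 gene past 2-fold in croton oil. At 3000 UMIs per cell, Fos had a UMI in 94.6% of high and 97.2% of other untreated cells, 85.0% and 95.3% in croton oil and 85.1% and 94.7% in microneedle. Inflammatory mediators had medians of -0.32, -0.04 and -0.25, with Cxcl2 at -0.71, -0.46 and -0.43. The all-gene medians were 0.05 in each library. The 1 inflammatory gene past 2-fold, of 10 compared, was the chemokine Ccl3 in croton oil, where 0.625% of all genes were higher. It was at 105 CPM in high and 22.2 CPM in other cells (2.02 on the log2 scale). Also in croton oil, 1 of 8 oxidative stress genes compared (Hmox1) and 1 of 10 p53 and apoptosis genes (Pmaip1) were at least 2-fold higher. Neither list had a gene past 2-fold in untreated or microneedle. Migration and maturation genes had medians of -0.25, 0.02 and 0.01, with 1 of 7, 7 of 13 and 5 of 9 above 0. The costimulatory Cd80 gave -1.03, -0.74 and -0.41 and Relb -0.47, -0.60 and -0.79, while Cd40, another costimulatory gene, gave 0.04, 0.55 and 0.40.

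Depth and identity differed little between high and other Langerhans cells. Median UMIs were 10378 and 11636 untreated, 11982 and 12652 in croton oil, and 15345 and 17512 in microneedle, so high cells were slightly shallower. Mitochondrial UMIs were 1.46% and 1.55%, 1.60% and 1.59%, and 1.24% and 1.39%. The class II genes of the gate held a median of 4.95% and 4.53% of UMIs, 5.39% and 5.05%, and 4.80% and 4.59%. They were thus slightly higher in high cells of each library. Of 10 Langerhans cell markers, 9, 8 and 8 were higher in high cells. After thinning, Cd207 had a UMI in 75.8% of high and 76.7% of other untreated cells, 46.2% and 46.4% in croton oil, and 65.3% and 66.1% in microneedle. Mki67 or Top2a had one in 14.4% and 14.1%, 6.58% and 9.92%, and 16.2% and 15.3%. Ccr7 or Fscn1, of migrating cells, had one in 0.107% and 0.394%, 2.35% and 3.47%, and 1.29% and 0.743%. Their intervals overlapped in each library except for Mki67 or Top2a in croton oil.

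By the lowest of the 3 correlations within libraries, over cells thinned to 3000 UMIs, the gene most like Hspa1a and Hspa1b was Hsph1 among 5629 genes (r = 0.37, 0.38 and 0.48). Bag3 was next (0.19, 0.17 and 0.26), then Ubqln1 (0.15, 0.19 and 0.21), Dnajb1 (0.13, 0.15 and 0.12), Tbl3, Trmt61b, St13, Trpm7, Dnajb4 and Mat2a. Hspa8 ranked 12, Hspe1 78, Hspd1 641 and Hsp90aa1 2913. Each r is over 8550, 5888 and 5231 cells that share a library, and apart from the first few they are weak.

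Summed over all Langerhans cells, the members differed little between treatments. None of the 9 members that reached 20 CPM was 2-fold apart from untreated in croton oil or in microneedle, where 11% of 6839 and 5.67% of 6703 genes compared were. Hspa1a was at 196 CPM in untreated cells (194 to 199), 219 CPM with croton oil (216 to 222) and 163 CPM with microneedles (160.2 to 165). Hspa1b was at 61.4, 96.0 and 55.3 CPM, and its croton oil value was 0.61 above untreated on the log2 scale, the largest difference among these 9 members. Hspe1 was at 109, 158 and 128 CPM (0.52 and 0.23) and Hspd1, its partner, at 89.6, 103 and 93.4 CPM (0.19 and 0.06). Hspa8 was at 920.3, 1142 and 1001 CPM (0.31 and 0.12), and Hsp90aa1 was at 584, 555 and 525 CPM (-0.07 and -0.15).

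Among the Hsp70 helpers, Hsph1 was at 46.3, 60.3 and 54.1 CPM (0.35 and 0.20 from untreated). Bag3 was at 52.6, 52.6 and 41.4 CPM (0.00 and -0.31). Dnajb1 was at 54.4, 59.1 and 42.6 CPM (0.11 and -0.32). Over the 9 members the median was 0.19 in croton oil and -0.14 in microneedle, beside -0.03 and 0.02 over all genes compared. Between the treated libraries all 9 were above 0 in croton oil over microneedle, with none 2-fold apart (2.61% of all genes were), led by Hspa1b at 0.74 and Dnajb1 at 0.43. In these summed values a change in the share of high cells cannot be told apart from a change within cells, and both comparisons use the same untreated library.

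Members other than Hspa1a and Hspa1b were also compared with untreated within high and within other Langerhans cells. The levels of Hspa1a and Hspa1b themselves are bounded by the split and are not compared there. None of the 7 others that reached 20 CPM was 2-fold apart in high cells, where 10.9% of genes were in croton oil and 6.07% in microneedle, or in other cells, where 11.2% and 5.67% were. Hsph1 in high cells was at 272, 343 and 531 CPM, 0.33 and 0.95 above untreated, while in other cells it was at 21.4, 26.5 and 19.0 CPM. Bag3 in high cells was at 150.3, 189 and 212 CPM, and in other cells at 41.8, 36.3 and 28.8 CPM, so its sign differed between the 2 sets of cells in both treatments. The high cells also differed in Hspa1 level between libraries. At 2000 CPM or above were 232 of 944, 274 of 644 and 150 of 405. In that top bin Hsph1 was at 808, 455 and 960 CPM and Bag3 at 424, 223 and 321 CPM. From 500 to 1000 CPM, Hsph1 was at 76.3, 203 and 201 CPM and Bag3 at 55.9, 193 and 120 CPM. The values over all high cells mix these bins, and in croton oil both genes were below untreated in the top bin. Hspe1 differed by 0.48 in high and 0.53 in other cells of croton oil and by 0.26 and 0.23 in those of microneedle.

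**Figure D4:**
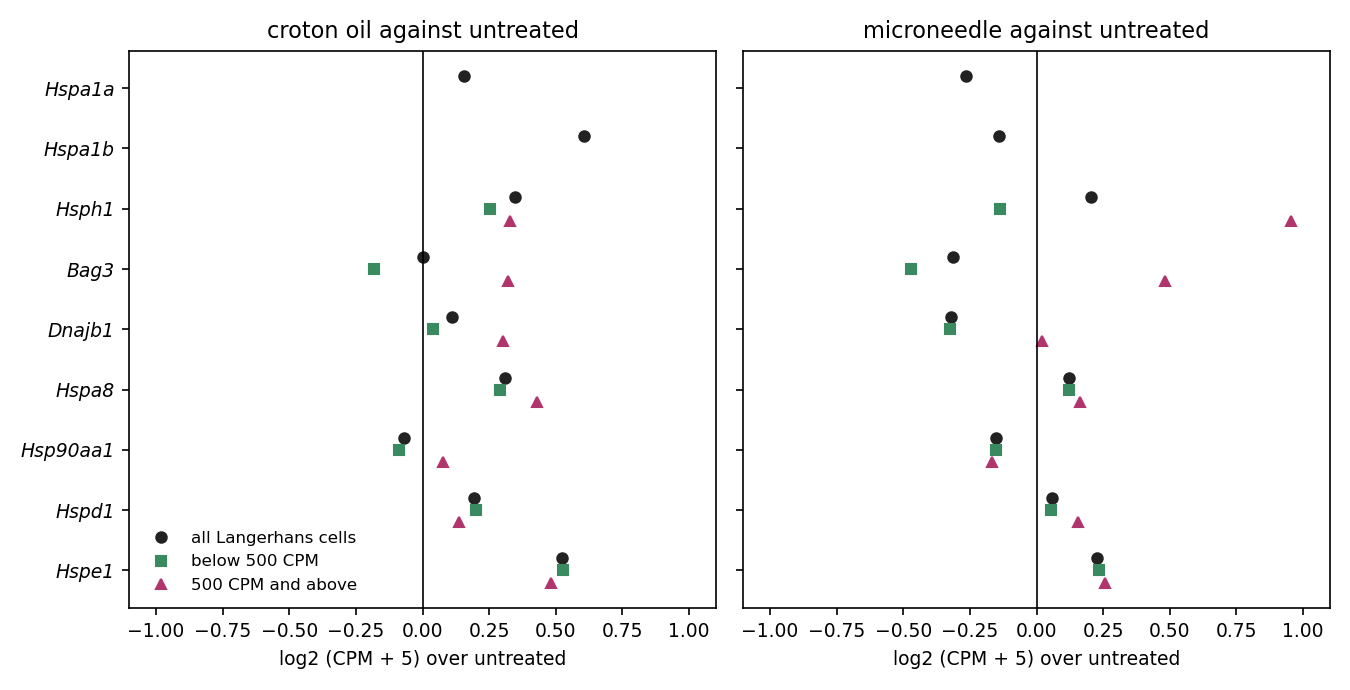
Difference from untreated, log2(CPM + 5), of 9 members in croton oil and in microneedle, for all Langerhans cells (circles), those below 500 CPM of Hspa1 (squares) and those at or above it (triangles), with circles only for Hspa1a and Hspa1b. For Hspa1b in croton oil the circle lies at 0.61, and for Hsph1 in microneedle the circle, square and triangle lie at 0.20, -0.14 and 0.95.

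The other protein quality lists differed among themselves in how far they lay from untreated. The medians were 0.08 and -0.02 for cytosolic chaperones in croton oil and microneedle, -0.03 and 0.00 for mitochondrial and 0.15 and 0.05 for endoplasmic reticulum chaperones. All 31 proteasome subunits listed were above untreated in both treatments, with medians of 0.67 in croton oil and 0.46 in microneedle. Of them 4 were at least 2-fold higher in croton oil and 0 in microneedle, where 5.48% and 3.91% of all genes were. Psmc4, an ATPase of the 19S cap, was at 41.3, 104 and 74.7 CPM and Psmb5, a catalytic subunit, at 72.8, 157 and 117 CPM. All 8 TRiC subunits were above untreated in croton oil (median 0.34) and 6 in microneedle (0.09). Bag1, another exchange factor of Hsp70, was at 68.2, 144 and 115 CPM, and the Hsp90 cochaperone Fkbp5, known as a glucocorticoid target, at 45.3, 75.2 and 131 CPM. Of 25 and 24 cytosolic chaperones compared, each of these was the single gene past 2-fold, Bag1 in croton oil and Fkbp5 in microneedle.

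The autophagy receptor Sqstm1 was at 779, 337 and 407 CPM. Metallothionein Mt1 was at 180.0, 923 and 382 CPM and the redox protein Txn1 at 173, 433 and 383 CPM, and 6 of 7 oxidative stress genes compared were above untreated in each treatment, with 4 and 3 at least 2-fold higher, where 5.48% and 3.91% of all genes were. The gene below untreated in both was Gclc, of glutathione synthesis, at 183, 74.9 and 127 CPM, which was past 2-fold in croton oil. Immediate early genes had medians of -0.61 and -0.62, with 3 of 20 and 2 of 20 above 0. At least 2-fold lower were 3 in croton oil and 2 in microneedle, where 5.48% and 1.76% of all genes were. Jun was at 1872, 512 and 686 CPM and Klf2 at 196, 68.8 and 57.9 CPM. Socs3, an inhibitor of cytokine signalling, was the 1 gene of this list at least 2-fold higher, in croton oil, at 23.7, 112 and 36.5 CPM.

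High cells were found in every other class with at least 50 cells in a library. Classes were clusters of the cells outside the gate, made without the members and named from markers. The largest share was in untreated keratinocyte-like cells of the Lor and Hrnr-led cluster, with 78 of 144 (54.2%, 45.7 to 62.5) and 46.4% after thinning, at a median of 17665 UMIs. The Krt6a and Gpr15lg-led keratinocyte-like cells of croton oil had 35 of 210 (16.7%, 11.9 to 22.4), and 21.6% after thinning. Different clusters thus made up the class in the 2 libraries, and over the class the shares were 53.2% of 156 untreated, 16.7% of 216 croton oil and 28.6% of 70 microneedle cells. Monocyte/macrophage-like cells of microneedle had 60 of 366 (16.4%, 12.7 to 20.6), of which 15 were high through 1 UMI at a median of 6330 UMIs. Of neutrophil-like cells, 8 of 213 were high with croton oil (3.76%, 1.64 to 7.27) and 34 of 413 with microneedles (8.23%, 5.77 to 11.3), at medians of 3046 and 3315 UMIs. T cell-like cells of croton oil had 13 of 135 (9.63%, 5.23 to 15.9).

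Other clusters outside the gate are called by their leading genes. The C1qa and C1qc-led and the Ccl22 and Fscn1-led clusters held 8 of 10 Langerhans cell markers and the Cacna1e and Ciita-led cluster 9 of 10, but these cells had failed the gate. In croton oil the C1qa and C1qc-led cells had 67 of 398 high (16.8%, 13.3 to 20.9) and the Ccl22 and Fscn1-led cells 72 of 661 (10.9%, 8.62 to 13.5). In microneedle the latter had 18 of 156 (11.5%, 6.98 to 17.6). A mixed Ccl27a and Cdh13-led cluster had 20 of 83 in untreated (24.1%), and a shallow Cacna1e and Ciita-led cluster 14.6%, 17.6% and 16.7% at medians of 2722, 1746 and 4732 UMIs. Classes with fewer cells, such as the 9 Dct and Pmel-led cells, were not compared.

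**Figure D5:**
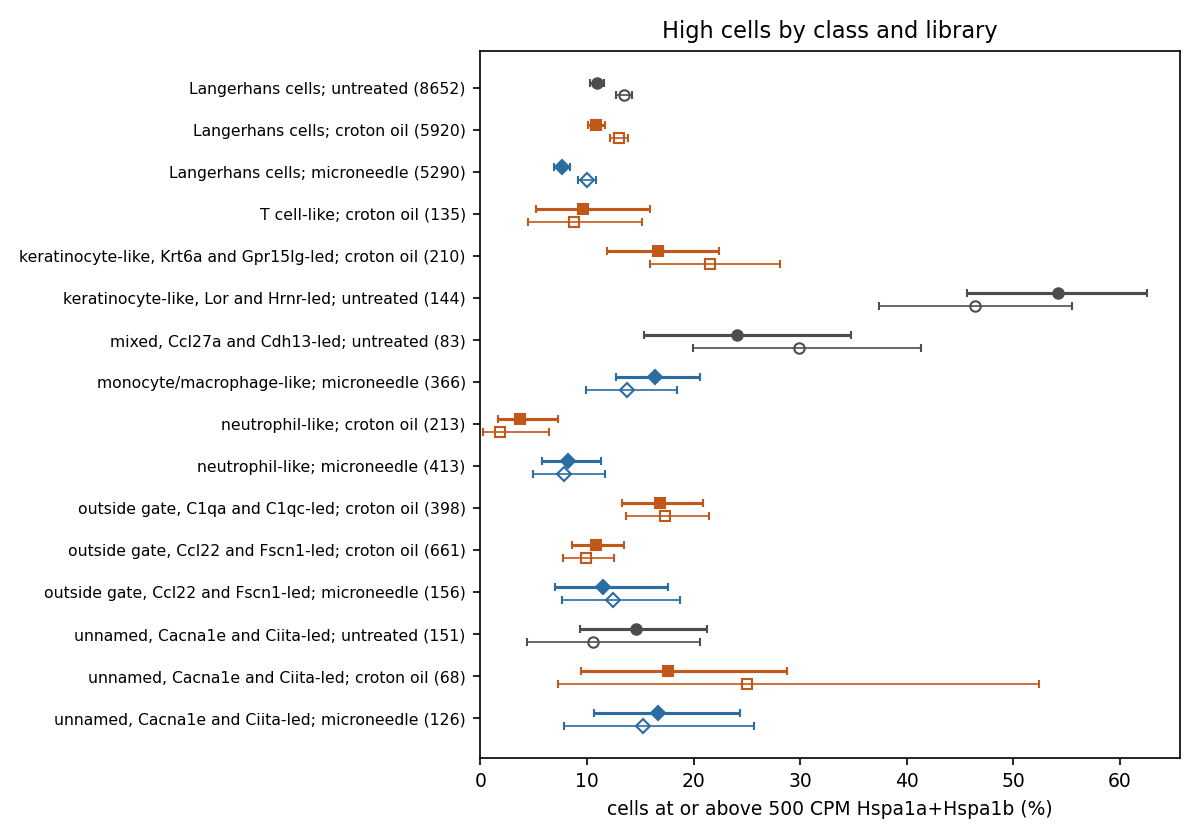
Share of cells at or above 500 CPM of Hspa1a and Hspa1b (%) by class and library, with the number of cells in brackets, filled symbols at the cells' own depth, open symbols after thinning to 3000 UMIs and bars for 95% exact binomial intervals. The Lor and Hrnr-led keratinocyte-like cells lie at 54.2% and neutrophil-like cells of croton oil at 3.76%, while Langerhans cells lie between 7.66% and 10.9%.

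The members that went with high Hspa1 differed between classes. In the C1qa and C1qc-led cells of croton oil Hsph1 was at 376 CPM (329.9 to 427) in 67 high cells and 24.97 CPM in 331 others, Bag3 at 324 and 61.0 CPM and Dnajb1 at 152 and 50.5 CPM. In the Ccl22 and Fscn1-led cells of croton oil Hsph1 was at 214 and 36.2 CPM. In the Krt6a and Gpr15lg-led keratinocyte-like cells Hsph1 was at 117 and 28.7 CPM and Hspb1 at 249.9 and 43.2 CPM. In the Lor and Hrnr-led cells Hsph1 was at 19.2 CPM (13.9 to 25.7) in 78 high cells and 16.8 CPM in 66 others, and Bag3 at 36.2 and 42.9 CPM, while Hspb1 was at 5413 and 2296 CPM. Hspa8, Hsp90aa1, Hspd1 and Hspe1 were lower in these high cells, by 0.50, 0.42, 0.64 and 0.47 on the log2 scale. In monocyte/macrophage-like cells Hsph1 was at 47.9 CPM (26.2 to 80.4) in high and 35.2 CPM in other cells, and Bag3 at 95.8 and 44.5 CPM. Dnajb1 was at 13.7 CPM in high cells, from 4 UMIs (3.73 to 35.0 CPM), and at 31.3 CPM in others. In the shallow Cacna1e and Ciita-led cells of microneedle, Hspa8 was at 4535 CPM in 21 high cells and 1465 CPM in 105 others and Hsp90aa1 at 2939 and 634 CPM. Of these 21 cells, 7 were high through 1 UMI. Whether these classes differ was not tested.

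The members' levels differed between classes and, within a class, between libraries, and most classes had enough cells in 1 library only. Hspa1a and Hspa1b together were highest in the Lor and Hrnr-led keratinocyte-like cells (639 CPM, 613 to 665) and the C1qa and C1qc-led cells (554 CPM, 532 to 578), and lowest in neutrophil-like cells, with 55.3 CPM after croton oil (39.8 to 74.7) and 133 CPM after microneedles (117 to 151). Neutrophil-like cells also had the lowest Hspd1 and Hspe1, at 10.53 CPM each after croton oil and 16.1 and 15.03 CPM after microneedles, and Hsph1 at 7.89 and 12.3 CPM. The Krt6a and Gpr15lg-led cells, whose leading genes include the mitotic Cdk1 and Birc5, had the highest Hspd1 and Hspe1, at 393 and 399.6 CPM. Hspa8 was at 1462 CPM in them and at 1857 CPM in the Cacna1e and Ciita-led cells of microneedle. The Lor and Hrnr-led cells had the lowest Hspa8 (331 CPM, 313 to 350.5) and Hsp90aa1 (136 CPM, 124 to 148).

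Hspb1 marked untreated keratinocyte-like cells. It was at 4129 CPM (4064 to 4194) there, at 75.1 CPM with croton oil (70.0 to 80.4) and at 373 CPM with microneedles (349 to 398), in cells of different clusters. Neutrophil-like and monocyte/macrophage-like cells were at 2.15 CPM or less. In T cell-like cells it had 0 UMIs of 959819, and the exact Poisson interval reaches 3.84 CPM. In Langerhans cells it was at 7.14 CPM in untreated skin (6.64 to 7.66), 0.897 CPM with croton oil (0.703 to 1.13) and 0.724 CPM with microneedles (0.564 to 0.915). Krt14, a keratinocyte gene, was at 69.4, 92.0 and 17.8 CPM in the same Langerhans cells. What part of the Hspb1 in Langerhans cells came from RNA of keratinocytes was not tested.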

How the data were processed

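Per the labels' protocols, RNA of single cells was captured with Chromium 3′ chemistry and sequenced, and per the file headers and the submitters' processing notes the authors counted it with Cell Ranger 8.0.0 (8.0 in the notes) on GRCm39. The deposited values were whole-number UMI counts per gene and cell barcode, not normalized; 3′ counts do not compare levels between genes. Cells with at least 500 genes and at most 10% mitochondrial UMIs were kept. Scrublet (scanpy 1.11.5) marked 2, 0 and 0 doublets by its own threshold, so the highest scores were removed at 0.8% per 1000 cells, that is 773, 532 and 376 cells.

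Cells outside the gate were clustered (30 principal components, 15 neighbours, Leiden resolution 0.5). The members were left out of this step. To be named for a class, a cluster needed 3 or more of its markers, and 0.5 or more of the list, at 20 CPM or above; clusters that so qualified as Langerhans cells had failed the gate and were called by their leading genes. Differences are log2(CPM + 5) of summed counts for genes with 20 CPM or more in either set, called at 2-fold. With 1 library per group no test was made. Intervals are exact binomial and Poisson. Only the calling of changed genes from summed counts and the totals after thinning were tested on simulated data. The gate, doublet removal, clustering, split and correlations were not. Named genes are all members, up to 4 per list with the largest differences, the 15 higher and 10 lower non-members with the largest smallest difference over libraries, and the 10 genes with the highest lowest correlation. Some list genes outside this rule, such as Fos, were chosen after their values were seen. Members, lists and rules were chosen with earlier results of these data known. Alternatives covered thresholds, gates, filters, scaling by edgeR 4.0.16 TMM, pseudocounts and clustering.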

Additional observations from a re-analysis of the deposited data

Results flagged for a closer look

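For 3 members and the sum of 2 of them, values had opposite signs in croton oil and microneedle Langerhans cells against the same untreated library, on the log2(CPM + 5) scale. Hspa1a was 0.16 above untreated in croton oil and at -0.26 in microneedle. Hspa1b was at 0.61 and -0.14, and the sum of both genes at 0.29 and -0.24. Dnajb1 was at 0.11 and -0.32. With 1 library per group the difference between the treatments was not tested, and no value here reaches 2-fold.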

How the results depend on the processing

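The share of high Langerhans cells moved with its definition. In the order untreated, croton oil and microneedle it was 22.6%, 20.02% and 15.7% at 250 CPM, 5.32%, 7.57% and 4.63% at 1000 CPM, 13.5%, 13.0% and 10.0% after thinning to 3000 UMIs, and 14.5%, 12.3% and 8.82% with class II at 5% of UMIs or more. Summed Hspa1a and Hspa1b were 0.38 and -0.26 from untreated with TMM scaling, 0.25 and -0.29 without mitochondrial and ribosomal protein genes in the total, and -0.20 in croton oil in cells below 500 CPM, a reversed sign in cells selected on the same level, which says nothing of the change in all cells. Without a filter on low counts 1 member, Hspb1, was 2-fold apart in each treatment. Genes at least 2-fold higher in high cells were 19, 41 and 35. They were 8, 20 and 12 after thinning, 12, 24 and 19 with a minimum of 50 CPM, 69 in microneedle with a split at 1000 CPM and 11 in untreated in cells with at most 1 keratinocyte-marker UMI, an alternative chosen after seeing the data. Genes at least 2-fold lower were 1, 15 and 9. They were 26, 37 and 44 with a split at 1000 CPM, 0, 2 and 3 after thinning, 2, 25 and 16 with a pseudocount of 1 CPM, 2 in untreated and 4 in microneedle against cells without a Hspa1 UMI, and 3 in untreated with at most 1 keratinocyte-marker UMI. Another 40 such values stayed within 1.5 times (counts of genes) or within the counting interval (shares and levels), and the cause of the changes was not tested. The number of members at least 2-fold higher in high cells was 3 in every split and filter tried but 1, untreated cells after thinning, where it was 2. No paired analysis was possible because each group had 1 library. Depth limits the shares in shallow classes, where 1 UMI passes 500 CPM in a cell of at most 2000 UMIs.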
